A study of Mus musculus with 19 samples.

Results

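The enteric nervous system was examined through 41 genes, found by symbol among the 32694 genes of the table. Of these, 36 are counted here as genes of enteric neurons and 5 (S100b, Sox10, Gfap, Fabp7 and Cdh19) as genes of enteric glia. Which cells of the colon made their RNA was not tested. They were measured by RNA sequencing in 19 libraries of mouse colon, from mice 12 weeks of age. Wild-type colon came from 3 females and 2 males. Single colon tumours came from 3 females and 4 males that carried Villin-Cre, a recombinase driven by a promoter of the intestinal epithelium, and had 1 allele of Apc deleted (Apc tumours). A further 7 tumours, again from 3 females and 4 males with Villin-Cre and 1 deleted allele of Apc, were labelled as also lacking both alleles of Tgif1 and both alleles of Tgif2 (Apc/Tgif tumours). Both tumour groups thus share the Apc deletion, and because Cre acted in epithelium, the deletions were not aimed at neurons, glia or muscle.

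The enteric nervous system is a network of neurons and glia within the gut wall. Its cell bodies lie in a plexus between the muscle layers and in another beneath the mucosa, and their fibres run through muscle and mucosa. It arises from neural crest cells that colonise the gut under the guidance of the receptor Ret, which binds GDNF family ligands together with Gfra co-receptors, and of the endothelin receptor Ednrb. Excitatory motor neurons use acetylcholine and tachykinins, and inhibitory motor neurons use nitric oxide and vasoactive intestinal peptide. Enteric glia ensheathe the neurons and carry Sox10, S100b and Gfap.

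Totals lay between 34417808 and 44732717 normalized counts per library, where a normalized count is a read count divided by a size factor for its library. Divided by the worth of 1 count in each library, these totals correspond roughly to 2.88e+07 to 4.94e+07 counts. The targeted genes matched the labels in part. Normalized counts of Tgif1 were 964 ± 143 (wild-type colon, SD, n = 5), 3815 ± 803 (Apc tumours) and 354 ± 137 (Apc/Tgif tumours, SD, n = 7 each). Tgif2 went against its label, with 161 ± 50.1, 642 ± 92.1 and 2657 ± 352. Which part of either gene was removed is not known here, a whole-gene total therefore does not test it, and directions given for Apc/Tgif tumours rest on their label. Epithelial markers were present in all groups: the sum of 8 such genes ranged from 450956 to 560594 in wild-type colon, from 289850 to 521486 in Apc tumours and from 338399 to 426608 in Apc/Tgif tumours.

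Most of the enteric neuron and glia genes were lower in tumours than in wild-type colon. In Apc tumours 36 of the 41 fell and 1, Ret, rose (limma on log2(normalized count + 1), Benjamini-Hochberg adjusted p under 0.05 over 18445 genes tested). Of all genes tested, 25.2% were called lower and 23.9% higher in that comparison. In Apc/Tgif tumours 37 of the 41 fell and none rose, either by the adjusted test or at an unadjusted limma p under 0.05, against 25.5% of all genes called lower and 24.8% called higher. Npy, Nefh, Ednrb and Fabp7 were not called in either comparison. The median log2 fold change of the 41 genes was -3.45 in Apc tumours and -4.18 in Apc/Tgif tumours, beside -0.01 and 0.0016 over all genes tested. The 5 wild-type libraries serve both comparisons, which are therefore not independent.

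Group ranges were often fully apart. For 32 genes each of the 7 Apc tumours lay below each of the 5 wild-type libraries, which was so for 15.4% of all genes tested. For 36 genes this held in Apc/Tgif tumours, against 16.5% of all genes. The mean was under 10% of the wild-type mean for 20 genes in Apc tumours and for 26 in Apc/Tgif tumours. The share of all genes under this limit was not computed. All 41 genes passed the filter on low values, a normalized count of 10 in at least 5 libraries. However, Cartpt, Grp, Slc18a3, Stmn3 and Sox10 reached 10 in the wild-type libraries alone, so they passed because of the group in which they are high and had to differ. All 5 are also among the genes with means under 10% in both tumour groups. Among the other 36 genes, 31 were called lower and 1 higher in Apc tumours, and 32 lower and 0 higher in Apc/Tgif tumours. However, only 24 of the 41 genes reached 10 in at least 5 tumours. The rest of the 36 thus also needed wild-type libraries to pass the filter, and their calls are not free of it. They are Chat, Slc5a7, Elavl4, Rbfox3, Prph, Nefl, Nefm, Gap43, Calb2, Gfra3, Gfap and Cdh19. In whole tissue, fewer neurons or glia and less RNA per cell cannot be told apart.

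**Figure D1:**
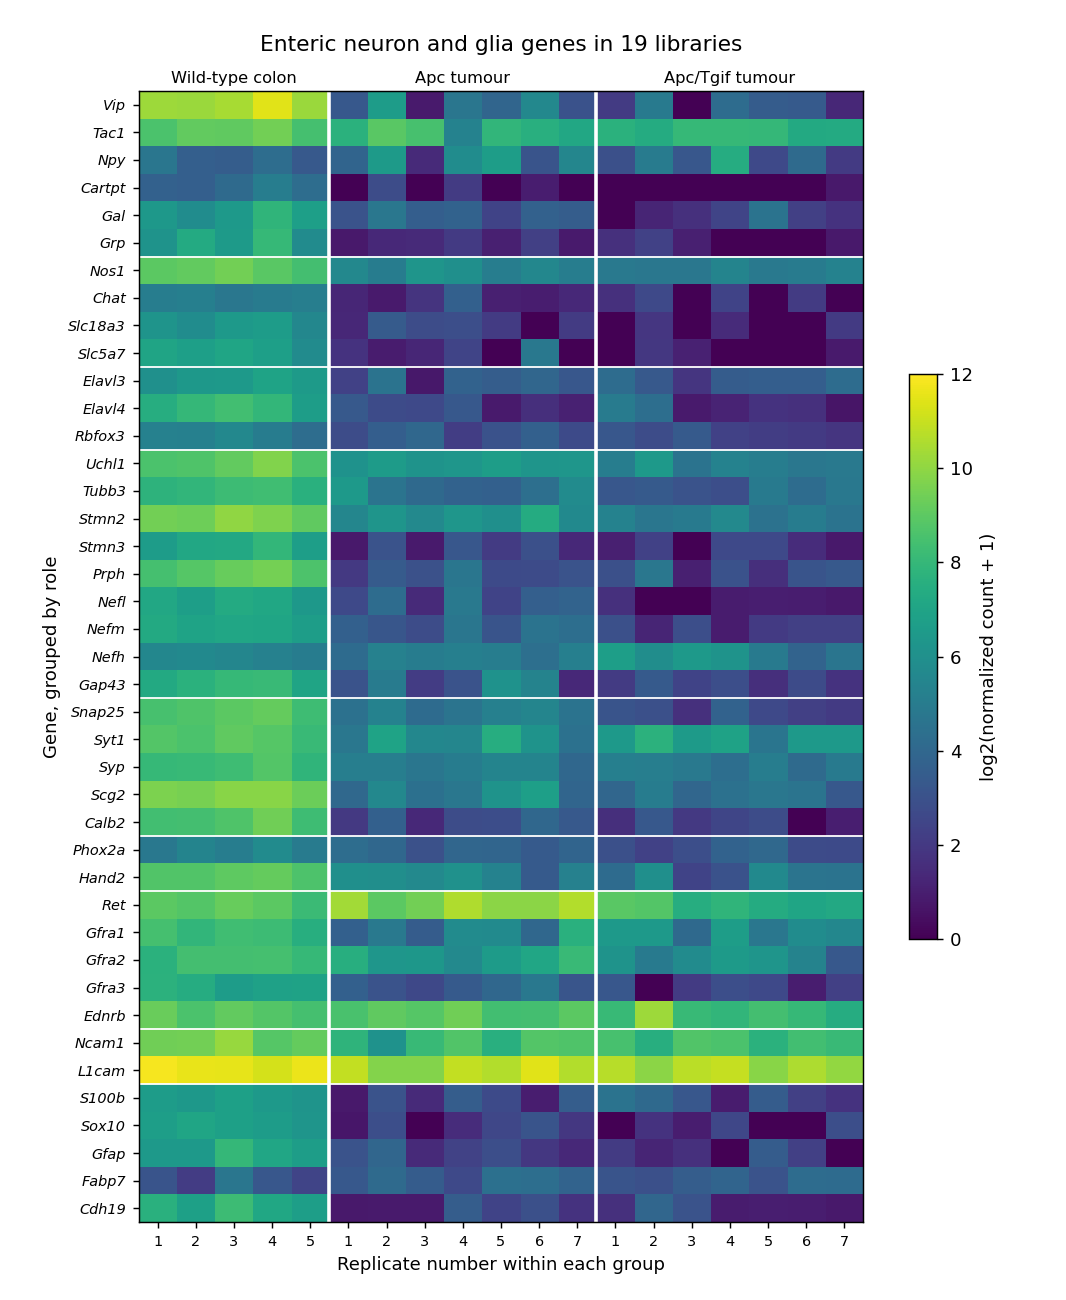
Heatmap of log2(normalized count + 1), from 0 to 12 on the colour scale, for the 41 genes in rows, grouped by role, and the 19 libraries in columns (5 wild-type colon, 7 Apc tumour, 7 Apc/Tgif tumour). Most rows are bright in the 5 wild-type columns and dark in the 14 tumour columns, while Ret is brightest in Apc tumours, and Ednrb, Nefh, Npy and Fabp7 show no called step between wild-type colon and tumours.

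Markers of some other cells of the gut wall moved with these genes, and those of others did not. Of 18 smooth muscle markers, 17 fell in Apc tumours and 17 in Apc/Tgif tumours, with median log2 fold changes of -3.93 and -4.01. Their summed normalized counts ranged from 238424 to 354409 in wild-type colon, from 20533 to 31871 in Apc tumours and from 18987 to 30398 in Apc/Tgif tumours. Of 5 markers of interstitial cells of Cajal, the pacemaker cells of gut muscle, 4 fell and 1, Gja1, rose in each tumour group. Their sums ranged from 26587 to 34130 in wild-type colon, from 10646 to 20383 in Apc tumours and from 7061 to 12319 in Apc/Tgif tumours. The sum of 5 fat cell markers varied widely within wild-type colon, from 118 to 4407, and ranged from 12.3 to 220.5 in the Apc and from 25.0 to 57.5 in the Apc/Tgif group. Among 8 epithelial markers 4 fell and 1, Krt18, rose in each tumour group, with medians of -0.30 and -0.35. Of 13 markers of enteroendocrine cells, the hormone-secreting cells of the epithelium that also make Snap25, Uchl1, Syp and Scg2, 9 fell and 1, Nts, rose in Apc tumours, and 11 fell and 1 rose in Apc/Tgif tumours. Of 8 fibroblast markers 1 fell and 4 rose in Apc tumours and 1 fell and 3 rose in Apc/Tgif tumours. Of 8 endothelial markers 1 fell and 2 rose in Apc tumours, and 0 fell and 2 rose in Apc/Tgif tumours. Of 6 leukocyte markers 2 fell and 1 rose in Apc tumours, and 2 fell and 2 rose in Apc/Tgif tumours. The part of muscle wall or enteroendocrine content in the neuron and glia values was not tested.

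The wild-type libraries differed among themselves. Replicate 4 held the highest value for 18 of the 41 genes and replicate 5 the lowest for 26. The mean of log2(normalized count + 1) over the 41 genes was 7.78 in replicate 4 and 7.10 in replicate 5, whereas it ranged from 3.69 to 4.72 in Apc tumours and from 3.30 to 4.12 in Apc/Tgif tumours. The smooth muscle markers had means of 12.8 in replicate 4 and 12.4 in replicate 5 on the same scale. The lowest wild-type library thus lay well above the highest tumour on this average.

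**Figure D2:**
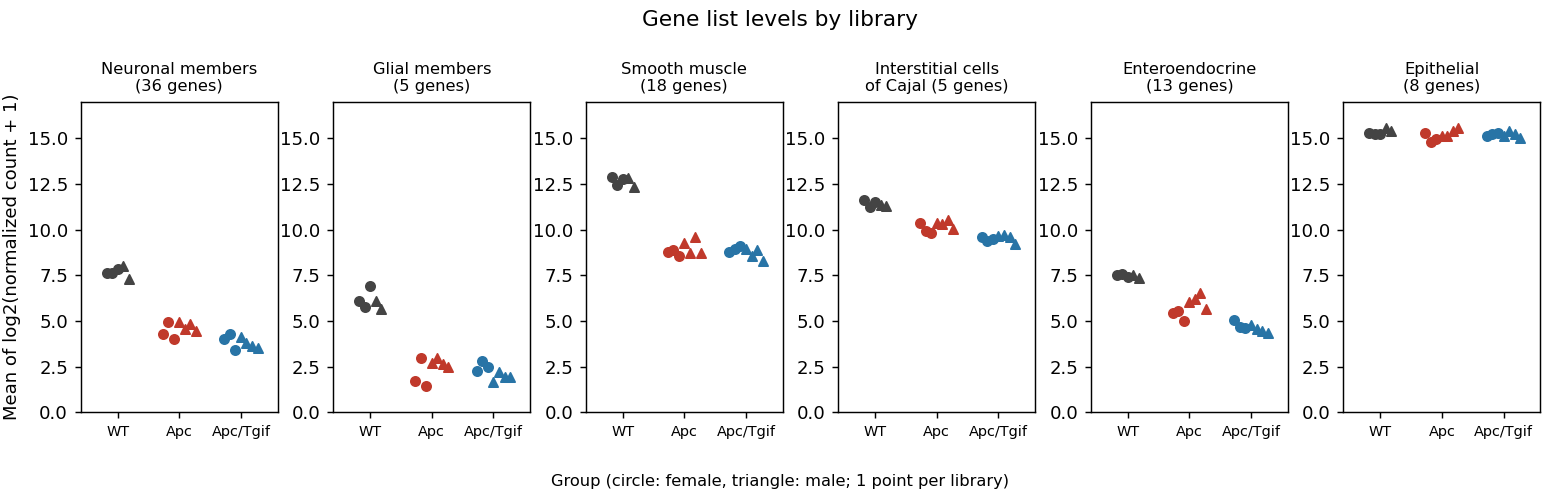
Mean of log2(normalized count + 1) per library over 36 neuronal genes, 5 glial genes, 18 smooth muscle markers, 5 markers of interstitial cells of Cajal, 13 enteroendocrine markers and 8 epithelial markers, with 1 point per library, circles for females and triangles for males. The neuronal, glial, muscle, interstitial cell and enteroendocrine panels show wild-type colon above both tumour groups with no overlap. The epithelial panel shows the 3 groups at similar levels.

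Promoter sequences were read for 27 of the 41 genes from RefSeq (GRCm38.p6), and the 250 bases before the annotated start were searched on both strands for 4 short motifs. The core of the cAMP response element, TGACGT or its reverse complement ACGTCA, was found in Cartpt, Chat, Ednrb, Elavl4, Scg2 and Vip, which are 6 of 27 genes or 22.2%, against 7.29% of 27025 genes. An E-box, CATCTG or CAGATG, was found in 8 of 27 (29.6% against 16.3% of all genes), a Sox core, ACAAAG or CTTTGT, in 3 (11.1% against 18.6%) and a TCF/LEF core, ATCAAAG or CTTTGAT, in 1, Stmn3 (3.70% against 3.72%). A gene with several matches was counted once. A match is a string of letters and not a shown binding site. Of the 6 genes with the cAMP response element core, Ednrb was not called in either tumour group and the other 5 fell in both. Of all 41 genes, 36 fell in Apc and 37 in Apc/Tgif tumours. A link between the motif and these falls was not tested. Of the windows around the motif in these 6 genes, only those of Vip and Elavl4 lie outside annotated genes, and they are shown for that reason. Each is 80 bases long, 5′ to 3′ on the strand of its gene, with the motif in capitals, at chr10:5639102-5639181 on the plus strand for Vip and at chr4:110351927-110352006 on the minus strand for Elavl4, where the motif begins 79 and 58 bases before the start.
Vip: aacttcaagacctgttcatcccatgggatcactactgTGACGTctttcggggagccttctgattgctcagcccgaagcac
Elavl4: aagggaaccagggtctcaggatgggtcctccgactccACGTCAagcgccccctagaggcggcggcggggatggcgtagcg

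Of the 6 neuropeptide genes, 5 fell in each tumour group. Vip encodes vasoactive intestinal peptide, which relaxes gut muscle and drives secretion (chromosome 10, 5639218 to 5647617, GRCm38). It had 1222, 1165, 1366, 2844 and 1168 normalized counts in the 5 wild-type libraries. Its lowest, median and highest values were 0.85, 14.1 and 99.5 in Apc tumours and 0, 9.46 and 29.6 in Apc/Tgif tumours. All tumours were far below all wild-type libraries, and wild-type replicate 4 stood above the other 4. Vip fell by 6.61 on the log2 scale in Apc tumours (SE 0.854, limma adjusted p = 3.87e-06) and by 7.84 in Apc/Tgif tumours (SE 0.854, adjusted p = 3.6e-07). The tumour means were 1.87% and 0.664% of the wild-type mean.

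Grp is the precursor of gastrin-releasing peptide. Its wild-type mean of 128 ± 86.0 normalized counts (SD, n = 5) compared with 1.85 ± 1.19 in Apc and 1.15 ± 1.5 in Apc/Tgif tumours (SD, n = 7 each), log2 fold changes of -5.30 and -5.87. Cartpt, the precursor of the CART peptide, went from 18.4 ± 8.64 to 1.43 ± 2.27 and 0.113 ± 0.299, and was listed at 0 in 4 of 7 Apc and 6 of 7 Apc/Tgif tumours. Both are among the genes that passed the filter through wild-type colon alone. Tac1, which encodes substance P, a contraction-promoting tachykinin, changed less. It went from 509 ± 140.3 to 238 ± 146 and 209 ± 48.3, log2 fold changes of -1.27 and -1.18 (limma adjusted p = 0.0128 and 0.0185). Without wild-type replicate 4 these were -1.02 and -0.93 and neither passed. In females alone the first was -0.56, and in males alone the second was -1.31, and these did not pass either. Npy, or neuropeptide Y, did not pass: it had 15 ± 6.83, 45.0 ± 40.2 and 34.3 ± 60.1, and single tumours ranged from 1.71 to 169.

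Gal, the precursor of galanin, lies at 3409915 to 3414544 of chromosome 19. It had 82.0, 56.0, 88.7, 227 and 109 normalized counts in wild-type colon. The lowest, median and highest values were 4.33, 11.1 and 26.4 in Apc tumours and 0, 2.34 and 22.9 in Apc/Tgif tumours. No tumour reached the lowest wild-type library, and the tumour groups overlapped. Gal fell by 3.24 and 4.81 on the log2 scale in the respective tumour groups (SE 0.542 each, limma adjusted p = 6.62e-05 and 5.01e-07).

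All 4 genes of transmitter synthesis and transport fell in both tumour groups without overlap. Nos1 encodes the neuronal nitric oxide synthase of inhibitory motor neurons (chromosome 5, 117781032 to 117958840). Its values were 507, 562, 696, 493 and 336 normalized counts in wild-type colon. In Apc tumours they were 31.5, 45.8 and 74.9 (lowest, median and highest), and in Apc/Tgif tumours 25.7, 28.2 and 41.2. Nos1 was one of the steadier genes within tumours, with an SD of 16.5 around 46.6 and of 6.15 around 31.3. It fell by 3.47 (SE 0.245, limma adjusted p = 1.95e-09) and 3.98 (SE 0.245, adjusted p = 2.09e-10).

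The other 3 genes of this group serve acetylcholine. Chat makes the transmitter, Slc18a3 loads it into vesicles and Slc5a7 takes choline back up. Chat went from 31.9 ± 3.45 (wild-type colon, SD, n = 5) to 2.88 ± 3.98 and 2.15 ± 2.23 (SD, n = 7 each). Slc18a3 went from 71.8 ± 21.3 to 4.31 ± 3.34 and 1.09 ± 1.41. Slc5a7 went from 106 ± 30.8 to 5.15 ± 9.63 and 0.701 ± 1.09. The log2 fold changes of the 3 genes ran from -5.02 to -3.47 in Apc tumours and from -6.06 to -3.78 in Apc/Tgif tumours. Slc18a3 lies within Chat on the same strand, so reads could be shared between them.

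The 3 neuronal RNA-binding proteins fell in both groups, again with no overlap. Elavl4, which stabilises neuronal transcripts (chromosome 4, 110203722 to 110351909), had 178, 257, 334, 243 and 102 normalized counts in wild-type colon. Its lowest, median and highest values were 0.83, 5.26 and 9.17 in Apc tumours and 0.60, 2.18 and 30.6 in Apc/Tgif tumours. The highest tumour remained under the lowest wild-type library. Elavl4 fell by 5.23 and 5.26 (SE 0.591 each, limma adjusted p = 7.22e-07 and 4.83e-07). However, Elavl4 and Rbfox3 needed wild-type libraries to pass the filter on low values. Its relative Elavl3 went from 90.4 ± 21.4 to 10.5 ± 7.18 and 11.4 ± 5.42, with log2 fold changes of -3.45 and -3.13. Rbfox3, the splicing factor known as NeuN, went from 34.6 ± 10.4 to 8.57 ± 4.16 and 5.32 ± 2.75, with smaller log2 fold changes of -1.82 and -2.41.

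Among 9 genes of the neuronal cytoskeleton and of axon growth, 8 fell in each tumour group without overlap and Nefh was not called. Stmn2, a regulator of microtubules in growing axons (chromosome 3, 8509360 to 8561606), had 689, 649, 1033, 807 and 541 normalized counts in wild-type colon. Its lowest, median and highest values were 45.2, 62.2 and 165 in Apc tumours and 22.1, 29.1 and 48.6 in Apc/Tgif tumours. Its relative Stmn3 fell further, from 149 ± 59.5 to 4.13 ± 3.29 and 2.62 ± 2.21. Stmn2 fell by 3.41 (SE 0.293, limma adjusted p = 2.42e-08) and 4.57 (SE 0.293, adjusted p = 3.65e-10), and Stmn3 by 5.21 and 5.69. Uchl1, the neuronal ubiquitin hydrolase PGP9.5 (chromosome 5, 66676091 to 66687234), had 385, 413, 556, 857 and 393 in wild-type colon. Its tumour values were 68.6, 77.8 and 102 in Apc and 23.0, 33.1 and 85.3 in Apc/Tgif tumours (lowest, median and highest), with log2 fold changes of -2.61 and -3.79 (SE 0.282 each, limma adjusted p = 4.18e-07 and 2.7e-09).

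The intermediate filaments of neurons did not all follow the same course. Prph, the peripherin of peripheral neurons, decreased from 504 ± 144 to 9.09 ± 7.50 and 8.47 ± 8.13, log2 fold changes of -5.88 and -6.14. Nefl, the light neurofilament chain (chromosome 14, 68083863 to 68089095), had 145, 105, 159, 141 and 82.0 in wild-type colon. Its lowest, median and highest values were 1.71, 11.4 and 27.4 in Apc tumours and 0, 0.89 and 2.17 in Apc/Tgif tumours. Nefl was thus close to 1 count in most Apc/Tgif tumours and listed at 0 in 2 of them. Nefm, the medium chain (chromosome 14, 68082590 to 68124846), had 156, 122, 137, 134 and 103 in wild-type colon. It had 5.97, 11.9 and 25.3 in Apc tumours and 0.89, 3.78 and 6.52 in Apc/Tgif tumours. The log2 fold changes were -3.73 and -6.25 for Nefl and -3.27 and -4.97 for Nefm (SE 0.477 and 0.404, limma adjusted p of 3.15e-06 and lower). However, Prph, Nefl and Nefm needed wild-type libraries to pass the filter on low values. Nefh, the heavy chain, had 42.1 ± 7.4, 29.8 ± 8.0 and 55.7 ± 34.4 in the 3 groups, log2 fold changes of -0.41 and 0.22 (limma adjusted p = 0.381 and 0.646). The annotated spans of Nefl and Nefm overlap on opposite strands. Overlap of their transcripts was not checked and the strand of the counting is unknown, so reads could be shared between them. Tubb3, the neuronal beta-tubulin, went from 252 ± 53.4 to 32.3 ± 28.4 and 15.2 ± 9.81, and Gap43, a protein of growth cones, from 205 ± 65.4 to 22.9 ± 25.2 and 4.76 ± 2.58.

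All 5 genes of synaptic vesicles and calcium binding fell in both groups without overlap. Scg2, a granin of dense-core vesicles (chromosome 1, 79434669 to 79440120), had 803, 749, 926, 923 and 638 normalized counts in wild-type colon. The lowest, median and highest values were 14, 26.1 and 109 in Apc tumours and 8.83, 21.4 and 31.5 in Apc/Tgif tumours. Scg2 fell by 4.59 (SE 0.437, limma adjusted p = 8.94e-08) and 5.39 (SE 0.437, adjusted p = 7.49e-09). Snap25, a component of the machinery that fuses vesicles with the membrane (chromosome 2, 136713453 to 136782428), had 362, 409.9, 497, 569 and 313 in wild-type colon. Its values were 17.1, 23.2 and 42.6 in Apc tumours and 2.14, 5.21 and 12.5 in Apc/Tgif tumours. No library of one group fell within the range of another, so Snap25 separated all 3 groups. Its log2 fold changes were -3.91 and -6.12 (SE 0.335 each, limma adjusted p = 2.38e-08 and 4.42e-11).

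Calb2, or calretinin, which buffers calcium in a large class of enteric neurons, went from 414 ± 150.2 to 7.53 ± 4.81 and 3.67 ± 3.08, under 2% of wild-type colon in each case (1.82% and 0.886%). Syp, the vesicle membrane protein synaptophysin, went from 303 ± 82.5 to 32 ± 9.36 and 27.9 ± 7.26. Syt1, the calcium sensor of vesicle release, kept more of its level: it went from 422 ± 94.9 to 72.4 ± 57.3 and 101 ± 55.8, log2 fold changes of -2.80 and -2.18.

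Both transcription factors of enteric neurons fell in both groups without overlap. Hand2, required for the formation of enteric neurons (chromosome 8, 57320983 to 57324633), had 428, 434, 524, 566 and 407 normalized counts in wild-type colon. In Apc tumours its lowest, median and highest values were 9.47, 48.6 and 65.4, and in Apc/Tgif tumours 4.27, 22.6 and 61.8. The spread within each tumour group was wide against the near-constant wild-type values. Its log2 fold changes were -3.47 and -4.49 (SE 0.546 each, limma adjusted p = 3.4e-05 and 1.28e-06). Phox2a, a homeodomain factor of autonomic neurons, went from 37.4 ± 11.2 to 13.2 ± 3.86 and 8.03 ± 4.30, log2 fold changes of -1.5 and -2.22. It overlaps Inppl1, an abundant gene on the opposite strand, so part of its reads may belong to that gene.

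The receptors that guide neural crest cells behaved unlike one another. Ret, the signalling receptor for GDNF family ligands (chromosome 6, 118151745 to 118197718), had 507, 438, 591, 504 and 290.5 normalized counts in wild-type colon. Its lowest, median and highest values were 501, 974 and 1546 in Apc tumours and 133, 178 and 492 in Apc/Tgif tumours. Of the 7 Apc tumours 6 lay above all wild-type libraries, 5 of the 7 Apc/Tgif tumours lay below all of them, and no Apc/Tgif tumour reached the lowest Apc tumour. Ret rose by 1.18 in Apc tumours (SE 0.343, limma adjusted p = 0.0076) and fell by 0.96 in Apc/Tgif tumours (SE 0.343, adjusted p = 0.0248). The rise was not called in females alone, where the log2 fold change was 0.60. The fall was not called in females alone (-0.58), with library totals made equal (-0.81), or without wild-type replicate 3 (-0.90), wild-type replicate 4 (-0.87) or Apc/Tgif replicate 3 (-0.87).

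The Gfra co-receptors, which give Ret its choice of ligand, fell in both groups. Gfra3, the co-receptor for artemin (chromosome 18, 34689898 to 34720387), had 209, 172, 98.3, 115 and 118 normalized counts in wild-type colon. It had 5.12, 9.49 and 26.5 in Apc tumours and 0, 3.90 and 8.70 in Apc/Tgif tumours (lowest, median and highest), log2 fold changes of -3.63 and -5.15 (SE 0.49 each, limma adjusted p = 5.88e-06 and 5.62e-08). However, Gfra3 needed wild-type libraries to pass the filter on low values. Gfra2, the co-receptor for neurturin (chromosome 14, 70890120 to 70979838), had 201, 335, 338, 349.7 and 259.7 in wild-type colon. It had 49.5, 94.0 and 278 in Apc tumours and 8.89, 54.0 and 90.5 in Apc/Tgif tumours, log2 fold changes of -1.38 and -2.70 (SE 0.484 each, limma adjusted p = 0.0236 and 0.000113). Apc tumour values of Gfra2 overlapped wild-type colon, and its fall there was not called without wild-type replicate 4 (-1.30), without Apc replicate 2 (-1.27) or in males alone (-1.37). Gfra1, the co-receptor for GDNF, went from 278 ± 67.9 to 52.1 ± 64.7 and 59.7 ± 32.4, log2 fold changes of -3.16 and -2.50, with 1 Apc tumour at 193. In males alone they were -2.08 and -2.16, and neither was called. Ednrb had 472 ± 108, 458 ± 128 and 398 ± 368 and did not pass in either tumour group (log2 fold changes 0.01 and -0.46, limma adjusted p = 0.976 and 0.255). Without Apc/Tgif replicate 2, which had 1224, the fall of Ednrb in Apc/Tgif tumours was -0.82 and was called.

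**Figure D3:**
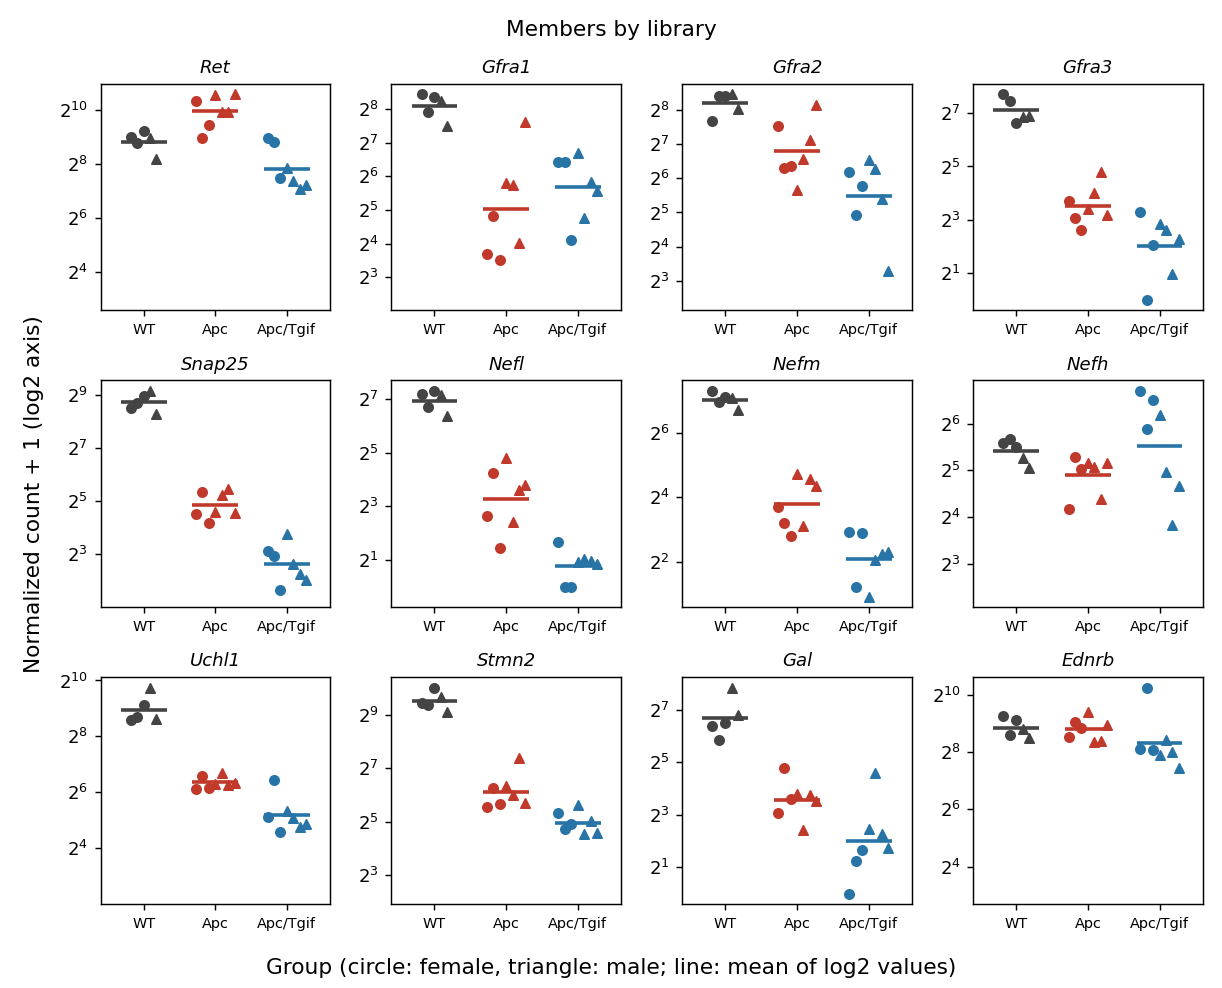
Normalized count + 1 on a log2 axis for 12 genes, with 1 point per library (circle for female, triangle for male) and a line at the mean of the log2 values, for 5 wild-type, 7 Apc and 7 Apc/Tgif libraries. Ret lies highest in Apc tumours and lowest in Apc/Tgif tumours, Snap25 steps down from group to group without overlap, and Nefh and Ednrb overlap across the 3 groups.

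Both neural adhesion molecules fell in both tumour groups, and by less than most of the other genes. L1cam, a cell adhesion molecule of axons (chromosome X, 73853778 to 73896105), had 3606, 3101, 2984, 2361 and 3222 normalized counts in wild-type colon. Its lowest, median and highest values were 872, 1581 and 2777 in Apc tumours and 943, 1454 and 1968 in Apc/Tgif tumours. One Apc tumour, at 2777, lay inside the wild-type range. L1cam fell by 1.02 (SE 0.26, limma adjusted p = 0.00301) and 1.20 (SE 0.26, adjusted p = 0.000719), and it overlaps Arhgap4 and Avpr2. In males alone the fall in Apc tumours was 0.54 on the log2 scale and was not called. Ncam1 went from 712 ± 259 to 289 ± 141 and 312 ± 94.1, log2 fold changes of -1.48 and -1.22. In males alone these were -0.57 and -0.81, neither of which was called, and in females alone the second was -1.41, also not called.

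Of the 5 glial genes, 4 fell in each tumour group without overlap. Cdh19, a cadherin of the glial and Schwann cell lineage (chromosome 1, 110888326 to 110977584), had 194, 113, 296, 139 and 104 normalized counts in wild-type colon. It had 0.74, 2.42 and 10.6 in Apc tumours and 0.78, 1.04 and 14.8 in Apc/Tgif tumours (lowest, median and highest). Tumour values thus lay near the worth of a single count in many libraries. Cdh19 fell by 5.38 and 5.48 (SE 0.608 each, limma adjusted p = 7.33e-07 and 4.1e-07). However, Cdh19 needed wild-type libraries to pass the filter on low values. Sox10, the transcription factor that maintains glia, went from 105 ± 20.3 to 3.47 ± 2.90 and 2.07 ± 2.57, and Gfap, a glial intermediate filament, from 133 ± 70.0 to 5.57 ± 4.62 and 2.98 ± 3.57. S100b, a calcium-binding protein of glia, went from 90.2 ± 14 to 5.32 ± 4.31 and 9.28 ± 7.97, and it overlaps the abundant gene Dip2a on the opposite strand. Fabp7, a fatty acid-binding protein of glial progenitors, was low in all groups, at 9.88 ± 8.84, 13.3 ± 5.60 and 11.5 ± 4.72, and was not called. Without wild-type replicate 3, which had 25.2, the log2 fold change of Fabp7 in Apc tumours was 0.96 and was called.

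**Figure D4:**
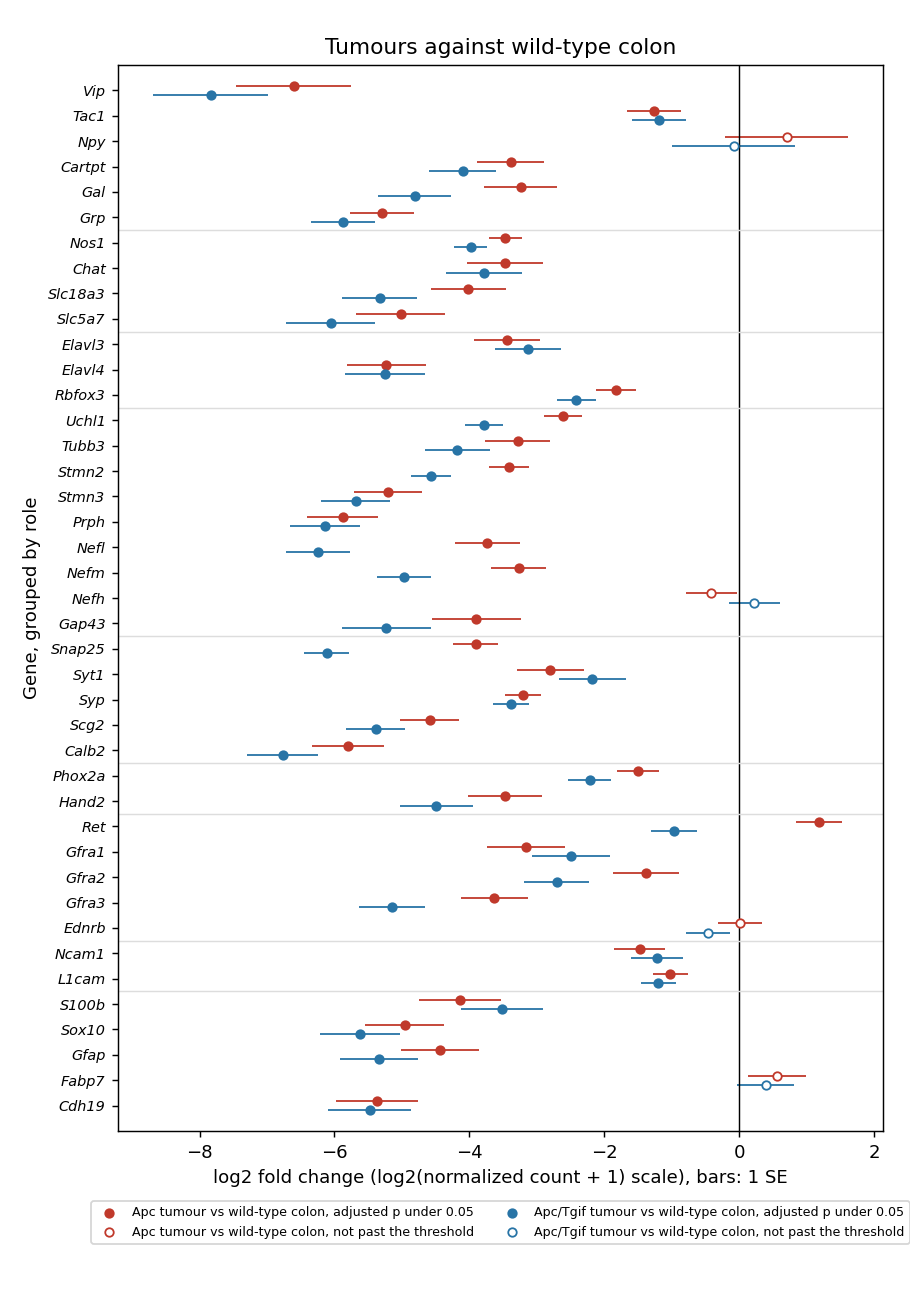
Log2 fold change against wild-type colon, on the log2(normalized count + 1) scale with bars of 1 SE, for each of the 41 genes in Apc tumours (red) and Apc/Tgif tumours (blue), with filled points for adjusted p under 0.05. Most points lie left of 0, with Vip farthest at -6.61 and -7.84, Ret is the sole filled point to the right, and Npy, Nefh, Ednrb and Fabp7 are open.

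Between the tumour genotypes, 9 of the 41 genes were lower in Apc/Tgif than in Apc tumours and none was higher, by the adjusted limma test or at an unadjusted p under 0.05. Of all genes tested, 8.76% were called lower and 7.88% higher. At an unadjusted p under 0.05, 14 genes were lower. The share of all genes at that threshold is not given for this or any other unadjusted count here. The median log2 fold change was -0.71, against -0.01 over all genes. The 9 called genes were among the 36 that reached 10 outside wild-type colon. However, Nefl, Nefm and Gfra3 did so only in Apc tumours and still needed wild-type libraries to pass the filter, so their calls are not free of it. For Ret and Snap25 each Apc/Tgif tumour lay below each Apc tumour, which was so for 1.77% of all genes tested. The 9 genes were 4 of the cytoskeleton (Nefl, Nefm, Uchl1 and Stmn2), 3 receptors (Ret, Gfra2 and Gfra3), the vesicle gene Snap25 and the peptide gene Gal. None of the 5 glial genes was called, either by the adjusted limma test or at an unadjusted p under 0.05.

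Nefl showed the largest difference of the 9, from 11.6 ± 9.0 normalized counts in Apc tumours to 0.831 ± 0.734 in Apc/Tgif tumours (SD, n = 7 each), a log2 fold change of -2.51 (SE 0.432, limma adjusted p = 0.000575). The 7 Apc tumours averaged 29.1 ± 10.2 and the 7 Apc/Tgif tumours 5.87 ± 3.51 for Snap25, which fell by 2.21 (SE 0.303, adjusted p = 8.23e-05). For Ret the averages were 1074 ± 400.2 and 256 ± 149, and it fell by 2.15 (SE 0.31, adjusted p = 0.000125). Nefm fell by 1.70 (SE 0.366), Uchl1 by 1.18 (SE 0.255) and Stmn2 by 1.16 (SE 0.265), with limma adjusted p = 0.0034, 0.00346 and 0.00535. The calls of Ret, Nefm, Uchl1 and Stmn2 were not made in females alone, where the log2 fold changes were -1.18, -0.89, -0.91 and -0.83. Snap25 was called in each of 31 alternative analyses, and Nefl in each of those that tested it, which leaves out the filter on a mean of at least 50.

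The other 3 calls lay nearer the threshold. Gal fell by 1.57 (SE 0.491, limma adjusted p = 0.0337), Gfra3 by 1.52 (SE 0.443, adjusted p = 0.0229) and Gfra2 by 1.32 (SE 0.438, adjusted p = 0.0444). The call of Gfra3 was lost without Apc/Tgif replicate 6 (-1.31), in females alone (-1.34) and with the 2 tumour groups fitted alone (-1.52). The call of Gal was lost without any 1 of Apc replicates 1, 2 and 3 and Apc/Tgif replicates 1, 2, 3, 6 and 7, with values from -1.59 to -1.27. It was also lost with a pseudocount of 5 (-0.88), in males alone (-0.60), with quantile normalization (-1.42) and with the 2 tumour groups fitted alone (-1.57). The call of Gfra2 was lost without any 1 of 14 libraries, with values from -1.41 to -0.94, and it held without Apc replicate 2 or 4 or Apc/Tgif replicate 1, 4 or 5. It was lost as well in females alone (-1.08), in males alone (-1.5), with quantile normalization (-1.19), and, at the same value of -1.32, with no filter on low values, no variance trend or the 2 tumour groups fitted alone. Some genes not called were called lower when a single library was left out: Slc18a3 without Apc replicate 6 or Apc/Tgif replicate 7 (-1.66 to -1.55), Gap43 without Apc replicate 7 (-1.75), Hand2 without Apc replicate 6 (-1.35), and Phox2a without Apc/Tgif replicate 5 (-0.87). Ednrb was called lower without Apc/Tgif replicate 2 (-0.78).

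The remaining genes were not called, and many of them stood at a few counts in the tumours. Vip had a log2 fold change of -1.23 (SE 0.773, limma adjusted p = 0.317), and its Apc values alone ran from 0.85 to 99.5. Nos1 differed by -0.51 (adjusted p = 0.128) and Scg2 by -0.81 (adjusted p = 0.184). Values near 0 were found for Tac1 (0.08), Elavl4 (-0.03), Cdh19 (-0.11) and L1cam (-0.18), although Cdh19 was called higher in females alone (2.06) and lower in males alone (-1.73). Of the 41 genes 34 had a value below 0, and 14 of those not called changed sign in at least 1 alternative analysis.

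**Figure D5:**
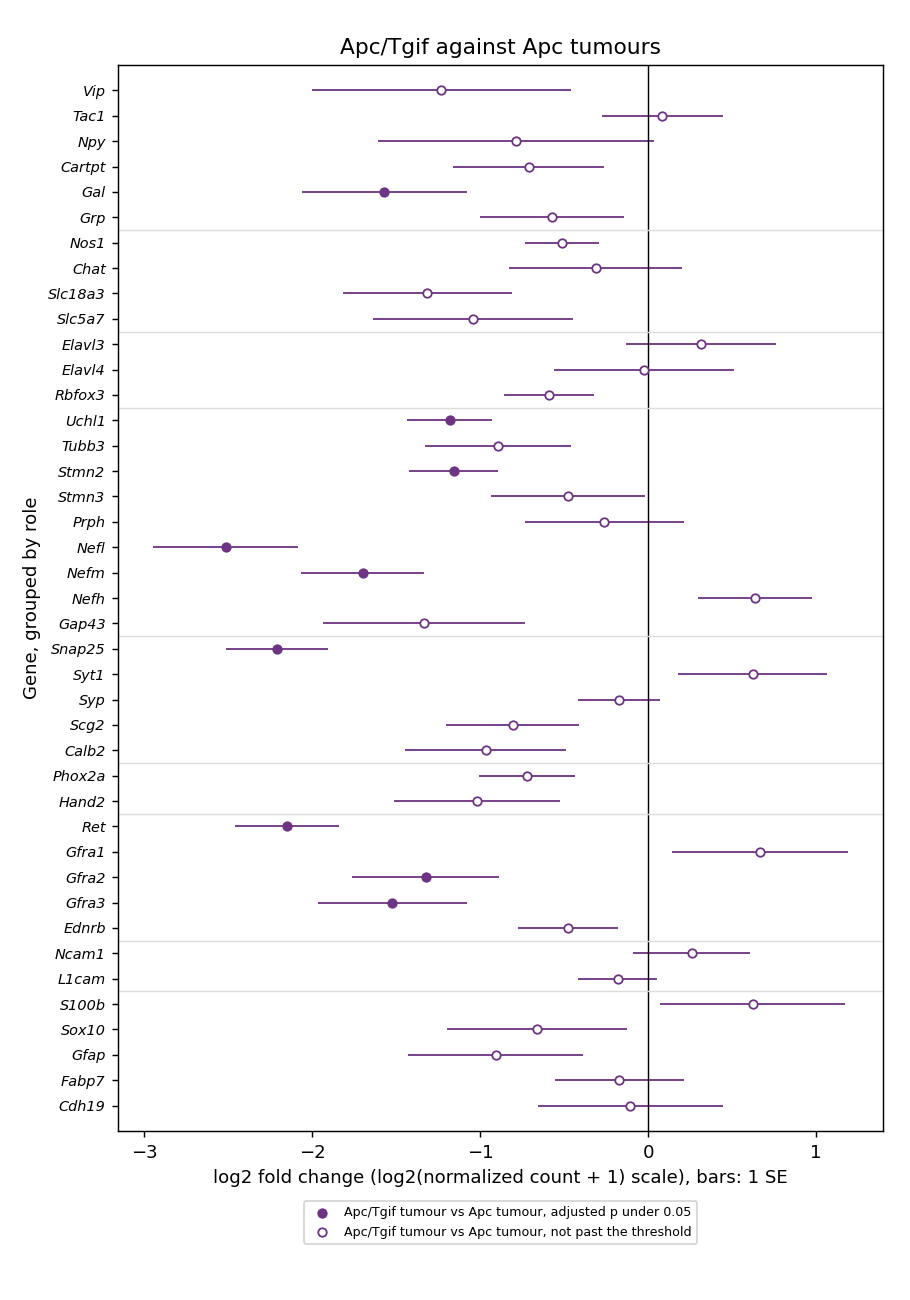
Log2 fold change of Apc/Tgif against Apc tumours, on the log2(normalized count + 1) scale with bars of 1 SE, for each of the 41 genes, with filled points for adjusted p under 0.05. The 9 filled points all lie left of 0, from Nefl at -2.51 to Stmn2 at -1.16, and the open points spread over both sides, up to Gfra1 at 0.66.

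Markers of other cells differed between the tumour genotypes as well. Of 13 enteroendocrine markers 6 were lower in Apc/Tgif tumours and 0 higher, with a median of -1.12. Their summed normalized counts ranged from 1056 to 12918 in Apc tumours and from 871 to 12774 in Apc/Tgif tumours, and their mean log2 levels from 5.02 to 6.55 and from 4.36 to 5.05. Of 5 markers of interstitial cells of Cajal 3 were lower. Of 8 fibroblast markers 3 were lower and 0 higher (5 at an unadjusted limma p under 0.05 in either direction), with a median of -0.61. None of 18 smooth muscle markers was called by limma (3 at an unadjusted p under 0.05) and none of 8 epithelial markers was (0 at an unadjusted p under 0.05), with medians of -0.16 and -0.02. The part of these cells in the 9 calls was not tested.

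The difference between the tumour genotypes was called as differing between the sexes for 3 of the 41 genes, a smaller share than among all genes. The test took the log2 fold change of males less that of females, for which 23.6% of all genes tested were called in either direction. For Cdh19 the value was -3.79 (SE 0.712, limma adjusted p = 0.00201): Apc tumours had means of 0.803 normalized counts in 3 females and 5.98 in 4 males, and Apc/Tgif tumours 8.14 in 3 females and 0.912 in 4 males. For S100b it was -2.77 (SE 0.956, adjusted p = 0.0447), with female and male means of 3.29 and 6.85 in Apc tumours and 15.8 and 4.36 in Apc/Tgif tumours. Both glial genes were low in tumours, so these are differences of a few counts. For Ret it was -1.69 (SE 0.509, adjusted p = 0.0243), with means of 836 in females and 1253 in males among Apc tumours and of 372 and 169.5 among Apc/Tgif tumours. The call of S100b was lost without any 1 of 15 libraries (-2.82 to -2.29) and held without Apc replicate 2 or 6 or Apc/Tgif replicate 3 or 5. The call of Ret was lost without Apc replicate 2 (-1.38) or 3 (-1.63) or Apc/Tgif replicate 1 (-1.43) or 2 (-1.5). None of the 41 genes had a called sex difference against wild-type colon, by limma: at an unadjusted p under 0.05 there were 2 in Apc tumours and 0 in Apc/Tgif tumours, and over all genes 0.0108% and 3.4% were called.

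Most genes of a wider set of enteric neuron genes also fell in tumours. Of 36 further neuron genes 31 were tested, and 21 fell and 2 rose in Apc tumours, 25 fell and 1 rose in Apc/Tgif tumours, and 8 were lower and 0 higher in Apc/Tgif than in Apc tumours. The medians were -2.34, -3.41 and -0.68. Of the 31 genes, 7 reached a normalized count of 10 in the wild-type libraries alone and so had to differ, Dbh and Nmu among them. Dbh, the enzyme that makes noradrenaline, went from 139 ± 30.8 normalized counts to 1.71 ± 1.5 and 1.59 ± 1.69, and Nmu, a neuropeptide of cholinergic neurons, from 185 ± 87.6 to 3.20 ± 2.14 and 4.69 ± 2.83. Isl1, a LIM homeodomain factor found in neurons and in endocrine cells, rose in both groups, from 124 ± 36.4 to 1033 ± 1054 and 1061 ± 733, log2 fold changes of 2.38 and 2.82.

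Between the tumour genotypes the smallest p-values among these neuron genes were those of Map2, Chgb and Chrnb4. Map2, a microtubule-associated protein of dendrites, had 356 ± 49.6, 232 ± 77.5 and 23.9 ± 8.40 in the 3 groups, a log2 fold change of -3.21 between the tumours (SE 0.271, limma adjusted p = 4.26e-07). Map2 was not called in Apc tumours against wild-type colon (log2 fold change -0.69, limma adjusted p = 0.0649). Chgb, a granin of neurons and endocrine cells, fell by 1.57 and Chrnb4, a nicotinic receptor subunit, by 1.70. Against wild-type colon, Scg3, another granin, went from 266 ± 70.4 to 16.6 ± 7.93 and 6.13 ± 4.03.

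The 14 further glial genes were more mixed. In Apc tumours 8 fell and 3 rose, in Apc/Tgif tumours 8 fell and 1 rose, and between the tumours 2 were lower and 1 higher. Abca8a, a lipid transporter, went from 532 ± 169.7 to 14.9 ± 10.1 and 21.1 ± 14.3. Mal, a membrane proteolipid found in both myelin and epithelium, rose from 183 ± 36.2 to 889 ± 219 and 2834 ± 1078 with no overlap among the 3 groups, log2 fold changes of 2.27, 3.88 and, between the tumours, 1.61. Gpm6b, a membrane glycoprotein of neural cells, rose by 1.24 in Apc tumours and was lower by 0.86 on the log2 scale in Apc/Tgif than in Apc tumours.

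Among 11 ligands of Ret and Ednrb and other neurotrophic factors, 4 fell and 3 rose in Apc tumours, 4 fell and 2 rose in Apc/Tgif tumours, and 2 were lower between them. Gdnf, the ligand of Ret and Gfra1, went from 104 ± 25.8 to 24.5 ± 8.74 and 33.3 ± 10.8, log2 fold changes of -2.10 and -1.65. Ntf3, or neurotrophin-3, went from 62.2 ± 21.0 to 9.83 ± 7.47 and 10 ± 4.96. Nrg1, the neuregulin that supports glia and epithelium, rose from 172 ± 70.4 to 617 ± 164 and 365 ± 65.1, and was lower by 0.73 on the log2 scale in Apc/Tgif than in Apc tumours. Bdnf rose in both groups (1.66 and 1.18).

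The receptors and targets on which enteric transmitters act fell in most cases. Of 19 such genes tested, 16 fell in Apc tumours and 15 in Apc/Tgif tumours, 0 rose, and 3 were lower in Apc/Tgif than in Apc tumours. At an unadjusted limma p under 0.05 the counts in either direction were 16, 16 and 5. Tacr2, the tachykinin receptor of gut muscle, went from 207 ± 67.7 to 3.45 ± 4.61 and 2.10 ± 3.02. Prkg1, the kinase through which nitric oxide relaxes muscle, went from 509.8 ± 156 to 63.9 ± 19.7 and 65.1 ± 23.6, and its partner Mrvi1 from 2252 ± 577 to 390.4 ± 57.1 and 414 ± 103. Between the tumours, Bche, a cholinesterase, had 336 ± 194 and 42.3 ± 24.7, and it fell by 3.03 (SE 0.422, limma adjusted p = 9.76e-05). Ache, acetylcholinesterase, fell by 0.95 and Chrm3, the muscarinic receptor of muscle and epithelium, by 1.37. Many genes of this list are made by smooth muscle, whose markers fell in both tumour groups as given above.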

How the data were processed

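Each library has 1 deposited column of normalized counts, a signal obtained by the authors as counts per gene over 1 factor per library. The submitters' processing notes name Salmon, DESeq2, GRCm38 and mm10 (versions and strand setting: not given in the sources used here). Low values were not all whole multiples of 1 step, so no count model was used. Genes reaching 10 in at least 5 of 19 libraries, 18445 of 32694, were log2-transformed after adding 1 and tested in a model of group and sex over all libraries (limma 3.58.1, R 4.3.3, variance trend, robust moderation). Two-sided p-values received the Benjamini-Hochberg adjustment over all genes tested, with a threshold of 0.05. Fold changes on this scale understate changes of low genes, and values are not scaled to gene length. For sex differences the model had a mean for each combination of group and sex. Libraries are single mice, so replicates are biological. Replicate numbers follow accession order and pair nothing. Steps were tested on simulated data.

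The 41 genes, the other gene lists and the alternatives were chosen with earlier results of these data known. Values per library were given for the gene with the highest mean in each role group and for genes called higher or called between the tumours, and from other lists the 3 smallest p-values per comparison and genes called against the majority. Positions are from GENCODE M21 (GRCm38). RefSeq promoters were matched by symbol for 27 of 41 genes. Those of Calb2, Cdh19, Gap43, Gfra2, Gfra3, Grp, Ncam1, Nefh, Nefl, Nefm, Ret, Snap25, Sox10 and Stmn2 were not used. Some genes of the other lists, counted in those lists, are not reported here by name.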

Additional observations from a re-analysis of the deposited data

Results flagged for a closer look

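In 123 sets of values, 1 per gene and group, 10 held a library whose log2 value stood apart from the rest of its group by Dixon's criterion at the 95% level. Chance flags about 1 in 20 sets. In wild-type colon these were Vip in replicate 4, at 2844 normalized counts with the next value at 1366, and Slc5a7 in replicate 5, at 54.4 with the next at 107. In Apc tumours they were Chat in replicate 4 (11.8, next 2.51), Stmn2 in replicate 6 (165, next 78.7) and Hand2 in replicate 6 (9.47, next 37.9). In Apc/Tgif tumours they were Uchl1 in replicate 2 (85.3, next 39.4), Ednrb in replicate 2 (1224, next 346), Elavl3 in replicate 3 (2.58, next 9.08), Syt1 in replicate 5 (24, next 84.9) and Cartpt in replicate 7 (0.79, the other 6 listed at 0).

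The difference between Apc/Tgif and Apc tumours was called as differing between the sexes for 3 of the 41 genes. The test used the log2 fold change of males less that of females. Of all genes tested, 23.6% were called in either direction, a larger share than 3 of 41. The values were -1.69 for Ret, -2.77 for S100b and -3.79 for Cdh19. Those of S100b and Cdh19 are differences of a few counts.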

How the results depend on the processing

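Counts of called genes were recomputed under 31 alternatives: 12 other settings and 19 analyses with 1 library left out. Sex differences were recomputed under 27 of them, 8 and 19. Except for group differences with equal library totals, the share of all genes called under each alternative is not given here. Counts under the other alternatives are therefore not set against such a share. The log-scale transformation, low depth of many tumour values, unknown strand of the counting and the 3 to 4 tumours per sex limit what can be called. With a filter on a mean of at least 50, which tests 21 of the 41 genes, 19 were lower in Apc and 20 in Apc/Tgif tumours than in wild-type colon, and 5 were lower in Apc/Tgif than in Apc tumours. In females alone, with fewer libraries, 0 were higher in Apc tumours than in wild-type colon, and 4 were lower and 3 higher (Nefh, S100b and Cdh19) in Apc/Tgif than in Apc tumours. There Cdh19 reversed, at 2.06, and in males alone it was called lower, at -1.73. With 1 library left out, the count lower ranged from 34 to 36 in Apc and from 35 to 38 in Apc/Tgif tumours against wild-type colon and from 6 to 10 between the tumours. Of the calls against wild-type colon, 31 of 37 in Apc and 33 of 37 in Apc/Tgif tumours held in each alternative that tested the gene, as did 2 of 9 between the tumours (Snap25 and Nefl) and 1 of 3 sex differences (Cdh19). The count higher in Apc tumours ranged from 1 to 2, with 2 (Ret and Fabp7) without wild-type replicate 3.

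Genes with a sex difference between the tumours numbered 3. With the filter on a mean of at least 50 there was 1, with array quality weights 9, and with 1 library left out 1 to 4, with 1 without Apc replicate 3 and without Apc/Tgif replicate 1. With array quality weights 2 genes had a sex difference in Apc tumours against wild-type colon, against 0 without them. The cause of these changes was not tested. Making library totals equal moved the median of all genes from -0.01 to 0.19 in Apc tumours and from 0.0016 to 0.15 in Apc/Tgif tumours. The genes called lower and higher among all tested went from 4639 and 4415 to 3418 and 6160 in Apc tumours, from 4708 and 4576 to 3845 and 5810 in Apc/Tgif tumours, and from 1615 and 1453 to 1849 and 1080 between the tumours. Of the 41 genes, 36, 36 and 9 (in the same order) were then lower and 1, 0 and 0 higher. No paired analysis was possible because the replicate numbers follow accession order and link no samples.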
